A study of Mus musculus with 9 samples.

Results

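Mist1+ Tomato+ cells of the gastric corpus, collected from C57BL/6 mice after ablation of Lgr5+ cells, were compared with gastric parietal cells of C57BL/6 mice. The 3 samples titled isthmus and the 3 samples titled parietal cell were chosen by their titles, and these 6 arrays are part of a series of 9. All 18193 genes with a probe set naming them alone were considered, and 10359 of them, those brighter than their array's median in 3 or more of the 6 samples, were tested. Tomato is a red fluorescent reporter, by which flow cytometry isolated the Mist1+ cells, per the labels. For the parietal samples the labels give no treatment, and the means of isolation is not stated in the sources at hand. Cell type, the sort and the ablation therefore differ together between the groups and cannot be told apart. Total RNA of each sample was hybridised to its own Affymetrix mouse array, and every level below is a log2 signal.

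The acid-secreting unit of the stomach renews from dividing cells in the isthmus, a narrow zone between the surface pits and the glandular neck. Parietal cells arise there, stop dividing and pack their cytoplasm with mitochondria, which supply the ATP for the gastric proton pump. Bhlha15 encodes Mist1, which drives the secretory programme of chief cells and has also been used to mark isthmus cells. Lgr5 is a receptor of the Wnt pathway that marks chief cells at the gland base and stem cells of the antrum.

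The 4 marker genes proposed for this contrast bore out the labels in part. Mki67, a nuclear protein of dividing cells, read 12.67, 12.76 and 13.08 on the isthmus arrays and 8.0, 8.10 and 8.28 on the parietal arrays. Slc26a7, an anion exchanger of parietal cells, read 4.94, 5.02 and 4.76 on the isthmus arrays and 12.06, 11.68 and 11.85 on the parietal arrays. Atp4a, the catalytic subunit of the proton pump, was lower on the isthmus arrays, at 12.09, 13.21 and 12.66 against 14.23, 14.03 and 14.32. Its signal on the isthmus arrays was nevertheless far above the array medians of 5.92 to 6.32, so parietal transcripts were present in both groups. Stmn1, a microtubule regulator used as a marker of isthmus progenitors, was high in both, at 12.74, 12.65 and 12.85 against 11.92, 12.30 and 11.79. Bhlha15 itself was dim in both groups, at 5.03, 1.34 and 7.36 against 6.82, 4.21 and 0.00, and was not tested. Lgr5 was dim as well, with no value above 6.26, and was not tested either.

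The groups stood well apart. Over the tested genes, arrays correlated at r = 0.852 to 0.856 within the isthmus group, 0.880 to 0.894 within the parietal group and 0.627 to 0.677 between the groups. Parietal replicate 1 differed from the other 5 arrays in its sex-linked genes. Its Xist, the RNA that coats the inactive X chromosome, read 13.13 against 4.46 to 5.93 elsewhere, and its Y-linked Eif2s3y read 2.84 against 11.32 to 11.59. These genes were picked with their values known. Whether the 3 samples of a group came from separate animals is not in the labels. By Xist and the Y-linked genes, parietal replicate 1 differed in sex from the other parietal samples, so these did not all come from 1 animal. The p-values reflect the spread among these samples alone. That spread may be technical among the isthmus samples, and in part among the parietal samples. In bulk samples like these, fewer cells of a type and less RNA per cell cannot be told apart.

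Of the 10359 genes tested, limma called 1709 higher and 1499 lower in isthmus at a Benjamini-Hochberg adjusted p under 0.05. That is a background of 31.0% of genes called in either direction, 16.5% higher and 14.5% lower. The 3 isthmus and 3 parietal values did not overlap for 4711 genes, or 45.5%. The balance between directions depended on scaling and on which group an array was left out of. On the deposited scale 53.3% of the calls were higher, with a median difference over all genes of 0.07, whereas centring each array on its median gave 35.1% higher calls and a median of -0.24. Quantile normalization gave 52.7% higher calls. Leaving out isthmus replicate 1 gave 1091 higher and 1312 lower calls, and leaving out isthmus replicate 3 gave 1098 and 1345. Without isthmus replicate 2 the counts were 1169 and 1395. In these 3 fits 45.4%, 44.9% and 45.6% of the calls were higher, without replicate 1, 3 and 2 in turn. Without parietal replicate 1 the counts were 1467 higher and 1066 lower. Of the calls, 57.9%, 57.4% and 57.5% were higher without parietal replicate 1, 2 and 3 in turn. Each of these fits kept the rule of 3 or more arrays above the median, so genes bright in only 1 group could leave the test. Tested genes numbered 9901 to 9920 without an isthmus array and 10019 to 10061 without a parietal array. List counts and medians given below for such fits share this limit.

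**Figure D1:**
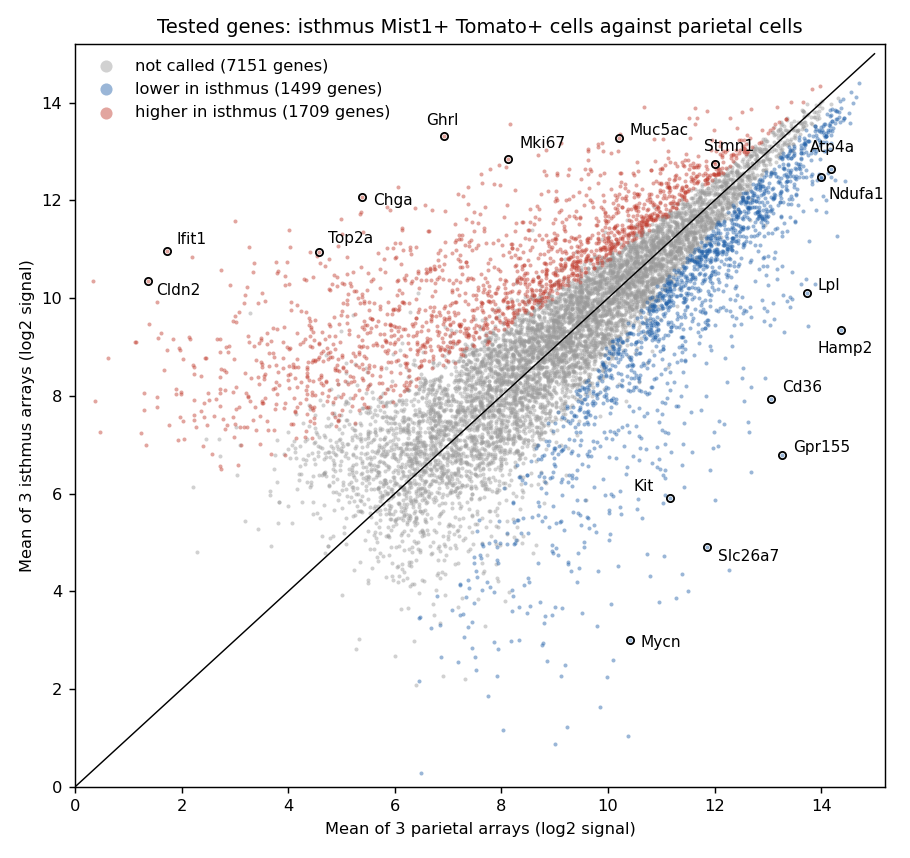
Mean log2 signal of the 3 isthmus arrays (vertical) against that of the 3 parietal arrays (horizontal) for the 10359 genes tested, with the line of equal signal. Red points are the 1709 genes called higher in the isthmus samples, blue points the 1499 called lower and grey points the rest, with named genes circled.

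Where a gene was below the array median on an array of its dimmer group, its fold is written "at least", with each such array set to its median as a stand-in for background. With dim values of both groups set so, 1448 of the genes called higher (14.0% of genes tested) differed by 1 log2 unit or more and 371 by 3 or more. Of the genes called lower, 1049 (10.1% of genes tested) differed by at least 1 unit and 138 by at least 3. The arrays thus held more large differences upward than downward on this scale. The array medians used for dim values were 5.80 to 5.86 on the parietal arrays and 5.92 to 6.32 on the isthmus arrays. This lower parietal floor widens upward differences and narrows downward ones. Sizes were not counted with arrays centred on their medians.

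The acid-secretory machinery was lower in the isthmus samples, but unevenly. Of 22 genes listed for the proton pump and acid secretion, 21 were on the array and all 21 were tested. Of these, 12 were called lower, 2 higher and 7 neither, with a median difference of -1.19 against 0.07 over all genes. Atp4a was 2.91-fold lower (log2 difference -1.54, SE 0.23, limma adjusted p = 0.000732). Atp4b, the beta subunit that carries the pump to the membrane, read 11.97, 12.80 and 12.45 against 14.30, 14.09 and 14.35. It was 3.58-fold lower (SE 0.18 on the log2 scale, limma adjusted p = 9.54e-05), and the groups did not overlap for either subunit.

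Larger differences were measured for the ion paths that serve the pump. Potassium recycling through the apical membrane uses the channel Kcnq1 with its subunit Kcne2. Kcnq1 read 9.78, 10.77 and 9.34 in isthmus and 12.12, 12.63 and 12.43 in parietal samples, a 5.39-fold difference. Kcne2 read 10.39, 11.17 and 10.43 against 13.35, 13.03 and 13.41, a 6.06-fold difference. Kcne1, another regulatory subunit of the same channel, read 0.00, 5.75 and 6.28 against 11.23, 11.80 and 11.46, at least 40.6-fold lower. Kcnj16, an inward rectifier channel, was 6.05-fold lower. For each of these channels the parietal values were all above the isthmus values.

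Slc26a7, named above as a marker, was at least 52.3-fold lower (log2 difference -6.96, SE 0.43, limma adjusted p = 2.08e-05). Slc4a2, the basolateral exchanger that removes bicarbonate, read 11.41, 12.34 and 11.68 against 13.95, 13.77 and 14.02, and was 4.30-fold lower. Aqp4, a water channel of parietal cells at the gland base, was 11.5-fold lower, at 6.41, 8.37 and 8.59 against 11.03, 11.24 and 11.67. Car2, the carbonic anhydrase that supplies protons, read 13.55, 13.77 and 13.90 against 13.85, 13.93 and 14.03. Its difference of -0.20 did not pass the test. It turned to 0.13 under quantile normalization, and with arrays centred on their medians it was -0.51 and passed (limma adjusted p = 0.00106). The 2 members called higher were Kcnk1, a potassium leak channel, at 11.28, 10.42 and 11.97 against 8.59, 8.30 and 8.42, and Cftr, a chloride channel that is also listed as a neck cell gene, at 10.91, 10.15 and 8.80 against 4.29, 3.46 and 2.94.

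Receptors and regulators of the parietal cell followed the same direction for most members. Of 18 listed and tested, 11 were called lower, 3 higher and 4 neither, with a median of -1.71. The histamine receptor Hrh2, which drives acid secretion, read 7.34, 8.38 and 6.47 against 10.85, 9.56 and 10.66, a 7.78-fold difference. The muscarinic receptor Chrm3, which answers acetylcholine, was at least 5.90-fold lower, and the somatostatin receptor Sstr2, which restrains secretion, at least 17.1-fold lower. Sstr2 read 5.26, 6.00 and 5.50 against 9.65, 10.82 and 10.27. The gastrin receptor Cckbr, named after its values were seen, read 4.14, 7.40 and 6.54 against 10.26, 7.20 and 7.78 and was not called. Receptors for the stimulating and the restraining signals were thus both lower where called.

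The estrogen-related receptors, nuclear receptors that promote mitochondrial gene expression, were lower too. Esrrg read 11.90, 12.86 and 12.43 in isthmus and 13.81, 13.72 and 13.93 in parietal samples, a 2.68-fold difference (SE 0.20 on the log2 scale, limma adjusted p = 0.000589). Esrrb read 4.31, 2.69 and 4.33 against 8.70, 9.25 and 8.23, at least 5.95-fold lower. Their coactivator Ppargc1a was 3.67-fold lower, at 10.27, 9.84 and 8.91 against 11.51, 11.01 and 12.13.

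Secreted factors of the list moved both ways. The angiogenic factor Vegfb was 13.1-fold lower and Igfbp2, which binds insulin-like growth factors, 27.1-fold lower, at 7.61, 8.15 and 6.49 against 11.94, 12.26 and 12.33. Shh, the hedgehog ligand made in the gastric epithelium, was higher instead, at 11.41, 11.64 and 11.89 against 8.27, 9.02 and 6.85, a 12.1-fold difference (SE 0.50 on the log2 scale, limma adjusted p = 0.000535). The other members called higher were Tgfa, an epidermal growth factor receptor ligand, and Rnf43, a ubiquitin ligase that dampens Wnt signalling. Tgfa lost its call under 11 of 16 alternatives and Rnf43 under 9. The count of members called lower fell from 11 to 6 without parietal replicate 1, to 7 without parietal replicate 2 and to 6 without parietal replicate 3. Esrrb and Sstr2, below the array median on every isthmus array, were not tested in those fits. The count called higher fell from 3 to 1 without isthmus replicate 1 or 2, without parietal replicate 2 or 3, and under quantile normalization, median centring, the replicate block and no filter on dim genes.

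**Figure D2:**
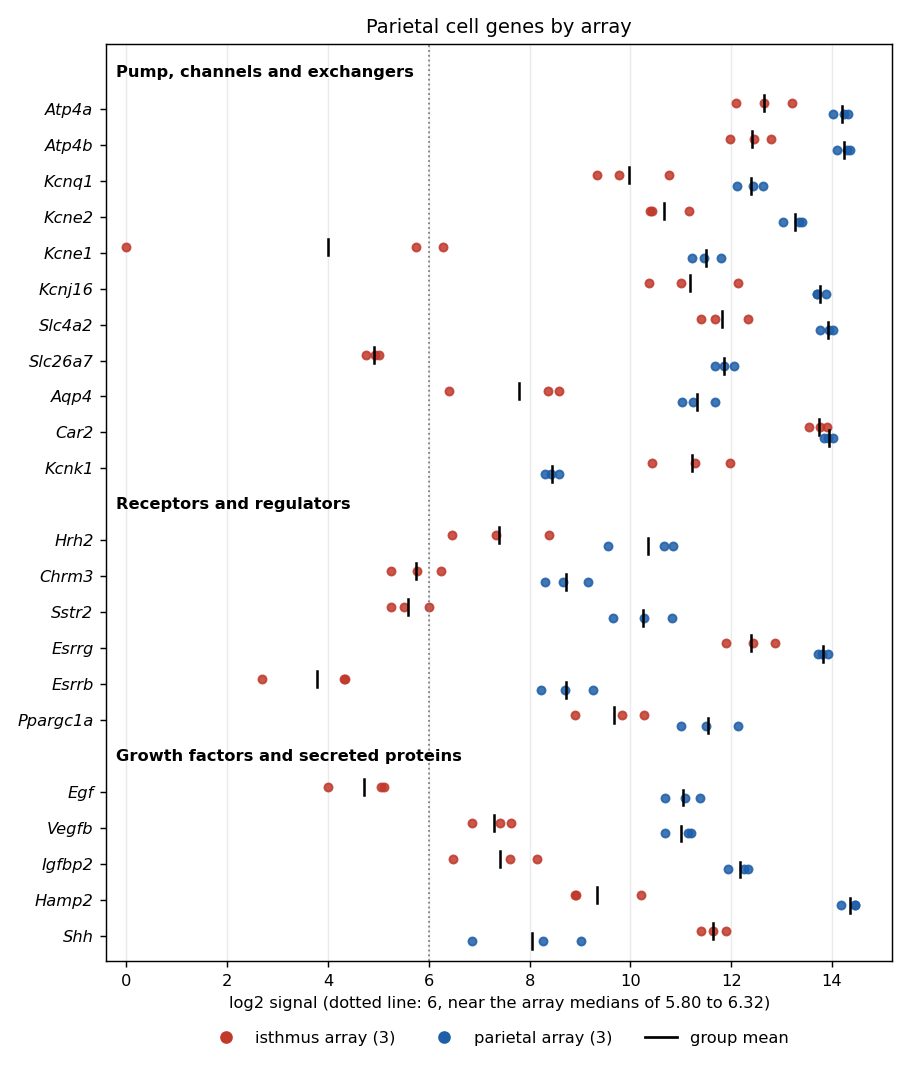
Log2 signal of 22 parietal cell genes on each of the 3 isthmus arrays (red) and 3 parietal arrays (blue), with the group means as black bars and a dotted line at 6. Atp4a and Atp4b stay above 11 on the isthmus arrays, whereas Slc26a7, Egf and Esrrb lie below the dotted line there.

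The genes of oxidative phosphorylation were lower almost without exception. Complex I takes electrons from NADH into the respiratory chain, and of 29 genes listed for it 27 were on the array and 26 were tested. All 26 were called lower, where 14.5% of all genes were, with a median of -1.07. The differences ran from -1.53 to -0.66. In each of the 26 genes every isthmus value was below every parietal value, where 45.5% of all tested genes did not overlap. Ndufa1, an accessory subunit, read 12.01, 12.70 and 12.69 against 14.01, 13.85 and 14.13, a 2.89-fold difference (SE 0.18 on the log2 scale, limma adjusted p = 0.000207). Ndufv1, which binds NADH, was 2.38-fold lower, at 12.44, 12.35 and 12.63 against 13.75, 13.63 and 13.79. Ndufs1, an iron-sulfur subunit, was 2.50-fold lower. The listed gene that was not tested, Ndufb4, was dim on most arrays.

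Complexes II to V, which pass the electrons on to oxygen and make ATP, gave 31 of 32 tested members called lower and none higher, with a median of -0.74. Uqcrfs1, the Rieske subunit of complex III, read 11.82, 11.93 and 12.00 against 13.23, 13.27 and 13.61, a 2.74-fold difference. Sdhb and Sdhc of complex II were 2.39-fold and 2.43-fold lower. Atp5l, a membrane subunit of the ATP synthase, was 2.46-fold lower, at 12.04, 12.32 and 12.37 against 13.55, 13.41 and 13.67. The single member not called was Cox7c, read by its probe set at 7.77, 7.45 and 7.29 against 8.56, 7.48 and 6.70. The median was -0.45 under quantile normalization. The count of 31 fell to 15 when limma was run without its intensity trend, and stayed at 31 without parietal replicate 1. Complex I kept 26 called members without parietal replicate 1.

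The supply of electrons to the chain was lower as well. Of 26 tested genes of the tricarboxylic acid cycle and pyruvate entry, 22 were called lower and none higher, with a median of -0.95. Mpc1, a subunit of the carrier that brings pyruvate into mitochondria, read 10.71, 10.76 and 10.64 against 12.35, 12.26 and 12.73, a 3.35-fold difference. Pdhb, of the pyruvate dehydrogenase complex, was 2.54-fold lower, and Got1, an aminotransferase of the malate-aspartate shuttle, 2.71-fold lower. Pdk2, a kinase that switches pyruvate dehydrogenase off, was 3.17-fold lower. Pdk4, a further such kinase, read 10.89, 9.98 and 11.15 against 11.36, 10.91 and 10.83 and was not called. Glycolysis and glucose uptake gave 11 of 17 tested members lower and 1 higher, with a median of -0.65. Slc2a4, the insulin-responsive glucose transporter, read 5.45, 9.41 and 5.92 against 11.88, 12.19 and 11.83, at least 26.9-fold lower. Pfkfb3, which makes an activator of glycolysis, was at least 11.1-fold lower, and Ldhb, the lactate dehydrogenase subunit of oxidative tissues, 4.23-fold lower. The glycolytic count of 11 became 7 without the intensity trend, and the median was -0.40 under quantile normalization.

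Fat handling held some of the larger metabolic gaps. Of 29 tested genes of fatty acid uptake and oxidation, 17 were called lower and 1 higher, with a median of -0.82. Cd36, a fatty acid transporter of the plasma membrane, read 6.80, 9.26 and 7.73 against 13.15, 12.89 and 13.14, a 35.0-fold difference (SE 0.51 on the log2 scale, limma adjusted p = 0.000102). Lpl, the lipase that frees fatty acids from circulating triglyceride, was 12.3-fold lower, at 8.62, 11.48 and 10.21 against 13.63, 13.70 and 13.85. Fabp3, a fatty acid carrier of heart and muscle, was 8.17-fold lower, at 10.62, 12.35 and 10.83 against 14.35, 14.20 and 14.34. Inside mitochondria, Echs1 was 3.50-fold, Acadm 2.54-fold and the ketone-using enzyme Oxct1 2.93-fold lower. The member called higher was Fabp4, a carrier best known from fat cells, at 9.02, 9.94 and 10.05 against 6.20, 4.77 and 6.85.

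Genes of energy buffering and mitochondrial upkeep were mostly lower where called. Of 21 tested genes, 12 were called lower and 1 higher, with a median of -0.61. Ak1, the cytosolic adenylate kinase, read 8.42, 8.84 and 7.84 against 12.33, 12.54 and 12.65, a 17.6-fold difference (SE 0.31 on the log2 scale, limma adjusted p = 3.17e-05). Ckb, the brain-type creatine kinase, was 6.88-fold lower, and the ADP/ATP carrier Slc25a4 3.31-fold lower. Mfn1, Mfn2 and Opa1, which fuse mitochondria, were also called lower, and Mfn2 lost its call under 6 of 16 alternatives. The list's median was -0.29 under quantile normalization and -0.93 with arrays centred on their medians. The count of 12 became 5 without the intensity trend, and 8 without parietal replicate 1 or 3. Nrf1, a transcription factor for nuclear genes of mitochondria, was the member called higher, at 8.78, 9.0 and 9.49 against 6.86, 6.52 and 8.09. Its call was lost under 5 of 16 alternatives.

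**Figure D3:**
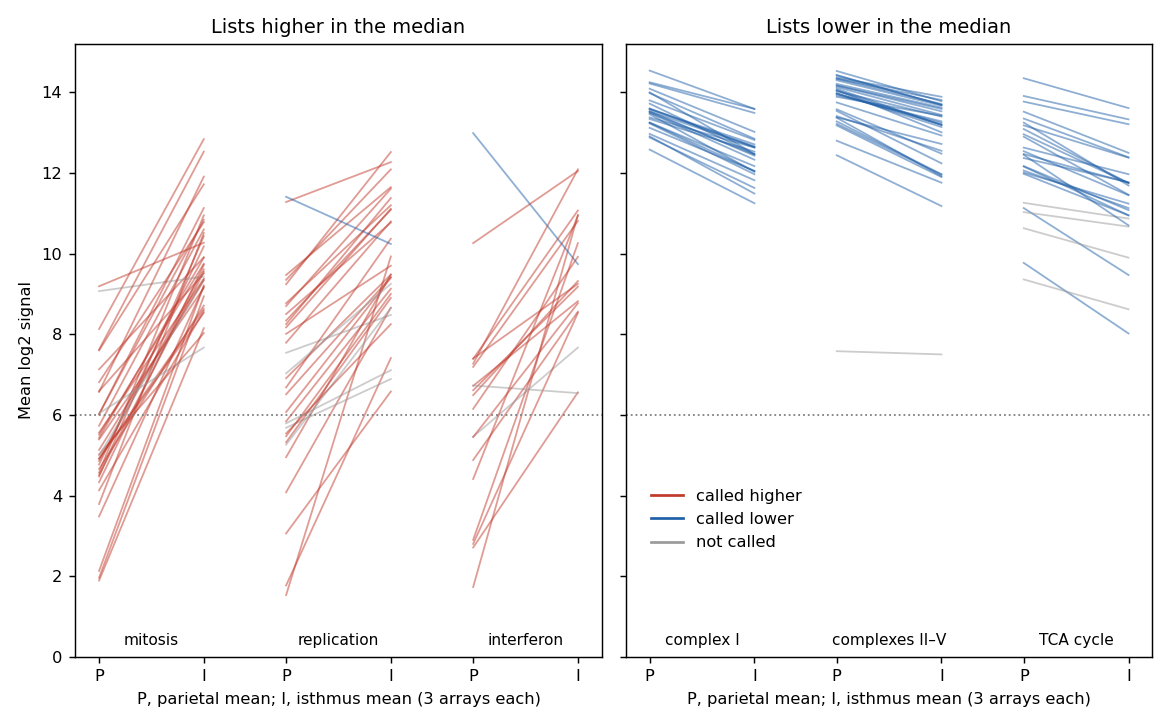
Mean log2 signal in the parietal (P) and isthmus (I) samples for each tested member of 6 gene lists, 1 line per gene, with a dotted line at 6. Lines of mitosis, DNA replication and interferon genes rise from P to I for most members, and those of complex I, complexes II to V and the tricarboxylic acid cycle fall from P to I with slopes alike within a list.

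The 20 genes with the largest drops, after dim values were set to the array median, were headed by Gpr155, a lysosomal cholesterol sensor. It read 7.60, 7.24 and 5.51 against 13.13, 13.39 and 13.30, at least 74.5-fold lower (SE 0.49 on the log2 scale, limma adjusted p = 3.53e-05). Hamp2, a paralog of the iron hormone hepcidin, read 8.91, 10.21 and 8.92 against 14.46, 14.18 and 14.46, a 32.4-fold difference. Hamp2 is near-identical to its neighbour in parts, so its probe set could read both. Egf, the epidermal growth factor precursor, read 5.11, 4.0 and 5.05 against 11.08, 11.39 and 10.68, at least 29.8-fold lower. All 3 were well separated between the groups.

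Lipid carriers, glycosyltransferases and signalling proteins were among the rest of these 20. Fabp1 and the apolipoprotein Apoa4, both better known from the intestine and liver, were at least 39.6-fold and at least 38.7-fold lower. Apoa4 read 6.76, 9.02 and 6.03 against 12.93, 12.37 and 12.62. B4galnt2, which adds N-acetylgalactosamine to glycans, was at least 38.6-fold lower, and Fut9, a fucosyltransferase, at least 27.9-fold lower. Kit, the stem cell factor receptor, read 6.47, 6.23 and 5.03 against 10.80, 11.25 and 11.42, at least 28.2-fold lower. Rnase1 was at least 34.1-fold, the dehydrogenase Sdr9c7 at least 36.6-fold, Tmem178 at least 34.7-fold and Tns1, a focal adhesion protein, at least 28.2-fold lower. Prnp, the prion protein gene, read 7.32, 8.31 and 8.03 against 12.46, 12.53 and 12.68, a 25.5-fold difference. Ddo, which degrades D-aspartate, was at least 25.8-fold lower, and Rasgrp3, an activator of Ras, at least 29.5-fold lower, the last losing its call without the intensity trend.

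Cell division genes were higher in the isthmus samples. Of 36 genes listed for mitosis and the spindle, 35 were on the array and all were tested. Of these, 32 were called higher and none lower, where 16.5% of all genes were called higher, and the median difference was 4.47 (3.46 with dim values set to the array median). Cenpa, Cenpf and Hmmr, named after their values were seen, were the 3 not called. The count was 32 without parietal replicate 1, and ranged from 22 to 33 over the alternatives run, with 22 without isthmus replicate 1 or 3.

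The promoters below are shown because list members moved together and many share short motifs. They are examples that hold such motifs: Mki67 and Ube2c of the mitosis list, Prim1 of the replication list and Atp5l of complexes II to V. Some mitosis promoters, not shown, held none of the motifs. The sequences come from RefSeq on build GRCm38.p6, from 250 bases before to 50 bases after the first listed start of each gene, 5′ to 3′ on the gene's strand. Capitals mark CCAAT, the box bound by NF-Y, TTTGAA, the core of the cell cycle homology region, TTCCCGC, an E2F site, and AAGGTCA, a site of estrogen-related receptors, each on either strand. Ube2c drives the anaphase-promoting complex, Prim1 primes DNA synthesis, and Atp5l is a respiratory gene that holds AAGGTCA, which most of the respiratory promoters lack.
Mki67 (chr7:135716330-135716629, minus strand): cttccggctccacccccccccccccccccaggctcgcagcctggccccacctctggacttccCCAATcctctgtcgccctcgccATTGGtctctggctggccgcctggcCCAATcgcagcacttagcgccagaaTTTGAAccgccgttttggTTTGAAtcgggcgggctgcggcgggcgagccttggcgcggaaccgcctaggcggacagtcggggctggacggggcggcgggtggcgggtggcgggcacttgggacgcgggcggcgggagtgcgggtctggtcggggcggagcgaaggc
Ube2c (chr2:164769679-164769978, plus strand): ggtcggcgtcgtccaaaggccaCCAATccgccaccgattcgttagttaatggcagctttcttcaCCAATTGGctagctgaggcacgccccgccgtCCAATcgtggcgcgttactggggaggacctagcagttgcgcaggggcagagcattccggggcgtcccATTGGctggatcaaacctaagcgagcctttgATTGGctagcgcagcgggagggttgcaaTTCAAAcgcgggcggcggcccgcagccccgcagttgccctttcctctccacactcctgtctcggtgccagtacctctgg
Prim1 (chr10:128014965-128015264, plus strand): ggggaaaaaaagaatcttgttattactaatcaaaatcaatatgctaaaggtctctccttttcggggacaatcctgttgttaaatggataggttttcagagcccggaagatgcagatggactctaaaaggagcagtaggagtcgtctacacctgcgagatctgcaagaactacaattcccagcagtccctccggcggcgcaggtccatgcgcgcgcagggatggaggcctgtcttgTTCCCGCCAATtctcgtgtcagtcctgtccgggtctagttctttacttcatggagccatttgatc
Atp5l (chr9:44920693-44920992, minus strand): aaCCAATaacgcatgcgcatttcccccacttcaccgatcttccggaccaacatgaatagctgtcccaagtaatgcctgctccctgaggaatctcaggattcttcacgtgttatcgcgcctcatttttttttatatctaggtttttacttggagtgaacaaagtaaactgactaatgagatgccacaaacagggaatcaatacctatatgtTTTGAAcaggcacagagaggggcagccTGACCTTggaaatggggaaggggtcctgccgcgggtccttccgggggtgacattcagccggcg

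In the Mki67 promoter TTTGAA begins 116 and 98 bases before the start, downstream of 3 CCAAT boxes. In that of Ube2c its reverse complement lies 29 bases before the start, downstream of 6 CCAAT boxes, 2 of which overlap each other. In that of Prim1, TTCCCGC begins 15 bases before the start and shares its last C with the CCAAT that follows. In that of Atp5l, AAGGTCA lies on the reverse strand 13 bases before the start, with TTTGAA 40 and CCAAT 248 bases before the start. It was the 1 promoter of 24 of complexes II to V with TTTGAA, and 1 of 4 with AAGGTCA. Of the 35 mitosis genes on the array, 31 had a promoter in the table, and TTTGAA was in 77.4% of these and CCAAT in 71.0%. Over the 8475 tested genes with a promoter the shares were 11.8% and 38.9%, and over all 27025 promoters 18.1% and 37.9%.

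For the DNA replication list, TTCCCGC was in 48.0% of 25 promoters, against 8.68% of the tested genes and 4.66% of all promoters, and TTTGAA in 12.0%. AAGGTCA was in 8.33% of 24 complex I promoters and 16.7% of 24 promoters of complexes II to V, against 2.91% of the tested genes and 4.66% of all. The list shares cover members on the array, tested or not. In complex I the share is 2 promoters, those of Ndufb2 and of Ndufb4, which was not tested. CCAAT was in 60.0% of the replication promoters and 58.3% of those of complexes II to V, against 38.9% of the tested genes. In complex I it was in 6 of the 24 promoters, a smaller share than among the tested genes. It was thus frequent in lists of either direction, but not in complex I. TTTGAA was in 4.17% of the promoters of each respiratory list. Among all genes called higher, CCAAT was in 39.6% of promoters, and among those called lower in 41.7%. Among all genes called higher, TTTGAA was in 15.4% and TTCCCGC in 10.8% of promoters, and among those called lower in 10.9% and 6.84%. AAGGTCA was in 1.80% of promoters of genes called higher and 3.58% of those called lower. A match describes letters in the window and is not a measured binding site.

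Mki67 itself was 26.2-fold higher (log2 difference 4.71, SE 0.25, limma adjusted p = 1.85e-05). Top2a, the topoisomerase that untangles replicated DNA, read 11.02, 10.64 and 11.19 against 6.37, 4.85 and 2.49, at least 30.7-fold higher. Of its 3 probe sets, 2 gave that direction. Cdca8, a subunit of the chromosomal passenger complex, read 12.79, 12.28 and 12.52 against 5.90, 8.85 and 8.11, a 30.1-fold difference. Ube2c read 11.90, 11.83 and 12.00 against 8.66, 6.70 and 4.34, at least 28.6-fold higher. Prc1, which bundles spindle microtubules, and Cdc20, an activator of the anaphase-promoting complex, were at least 22.3-fold and at least 22.1-fold higher. The isthmus arrays lay close together for these genes, and the parietal arrays scattered near or below the array median for several of them.

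Most replication genes were higher as well. Of 33 listed genes 32 were on the array and 31 were tested, with 25 called higher, 1 lower and 5 neither, and a median of 2.91. Mcm6, a subunit of the replicative helicase, read 12.55, 12.09 and 12.91 against 9.26, 10.72 and 7.74, a 9.69-fold difference. Gins1, which activates that helicase, read 9.28 to 10.51 against 1.35 to 1.75, with no overlap, at least 17.1-fold higher. Cdc6, a licensing factor, was at least 11.8-fold higher. Gmnn, geminin, an inhibitor of licensing, went the other way, at 10.75, 9.37 and 10.61 against 11.26, 11.64 and 11.34, with a call that was lost under 6 of 16 alternatives.

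Nucleotide synthesis was mixed, with 8 of 18 tested members higher, 1 lower and 9 neither, and a median of 0.52. Rrm2, the regulated subunit of ribonucleotide reductase, read 12.65, 12.30 and 12.57 against 10.22, 7.50 and 9.43, an 11-fold difference, and Tk1, thymidine kinase, was at least 9.65-fold higher. Paics, of purine synthesis, was 2.12-fold lower, at 11.79, 11.64 and 11.74 against 12.73, 12.80 and 12.89. The count of 8 fell to 4, and the median to 0.20, with arrays centred on their medians, and the count fell to 5 without parietal replicate 3 or isthmus replicate 1. The list's median was 0.25 without parietal replicate 1, 0.82 without parietal replicate 2, 0.80 without isthmus replicate 2 and 0.31 without isthmus replicate 3.

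Chromatin genes of dividing cells were called higher in 16 of 19 tested cases and lower in 1, with a median of 2.48. Uhrf1, which guides DNA methylation to newly copied DNA, read 11.23, 11.03 and 11.13 against 6.44, 6.34 and 5.48, at least 30.2-fold higher. Smc2, a condensin subunit, was 11.6-fold higher, Hmgb2, a chromatin protein, 9.02-fold and Hells, a remodeller, at least 10.3-fold higher. Rbbp4, a histone-binding protein, was the member called lower, by 1.19-fold, but it lost its call under 9 of 16 alternatives, and its difference turned to 0.02 under quantile normalization.

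Candidate stem and progenitor genes did not move as a group. Of 19 tested, 10 were called higher, 5 lower and 4 neither, with a median of 1.52. Stmn1 was 1.67-fold higher (SE 0.16 on the log2 scale, limma adjusted p = 0.00606), and its call was lost with arrays centred on their medians, without the intensity trend and with all 9 arrays in the fit. Over all its alternatives the adjusted p reached 0.157. Myb, a transcription factor of progenitors, read 11.09, 10.67 and 10.74 against 7.40, 6.27 and 4.32, higher by 4.32 log2 units with dim values set to the array median. Cd44, a cell surface receptor that rises in gastric metaplasia, was at least 11.1-fold higher, at 9.83, 8.96 and 9.15 against 5.77, 4.24 and 3.92. Axin2, a target of Wnt signalling, was at least 5.88-fold higher, and Klf5 3.02-fold higher. Sox9 read 11.17, 11.19 and 11.55 against 10.94, 10.60 and 10.35 and did not pass the test, and its difference of 0.67 became -0.15 as the mean of its probe sets, and passed without parietal replicate 1.

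The members called lower were Kit, Mycn, Lrig1, Bmi1 and Aldh1a1, and Bmi1 lost its call under 5 of 16 alternatives. Mycn, a Myc family transcription factor, read 3.12, 1.77 and 4.13 in isthmus and 10.54, 10.14 and 10.55 in parietal samples, at least 19.1-fold lower. It was tested in 13 of 16 alternatives and lost its call with all 9 arrays in the fit (limma adjusted p = 0.687). In that fit the probe set of each gene was chosen by its mean over all 9 arrays. Lrig1, a regulator of growth factor receptors used as a stem cell marker, was 2.19-fold lower, at 11.20, 10.97 and 10.69 against 11.93, 12.40 and 11.93. Markers from this list were therefore found on both sides. The count of 10 called higher was 6 without isthmus replicate 1, 2 or 3, and the count of 5 called lower was 3 without parietal replicate 1 or 3. Cd44 was not tested without an isthmus array, nor Mycn without a parietal array, so part of each fall is members leaving the test. The list's median was 0.98 without isthmus replicate 1 and 0.88 without isthmus replicate 3.

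**Figure D4:**
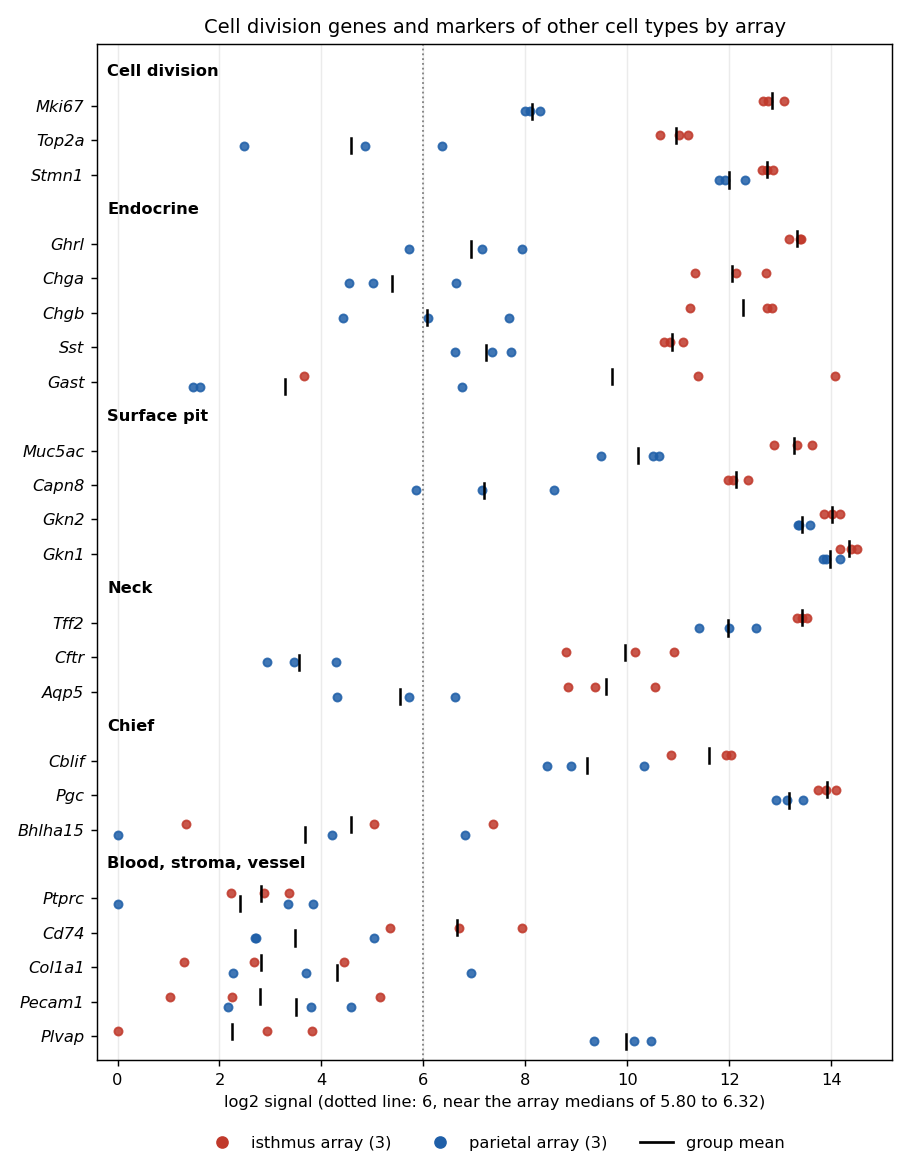
Log2 signal of cell division genes and markers of endocrine, pit, neck, chief, blood, stromal and vessel cells on the 3 isthmus arrays (red) and 3 parietal arrays (blue), with group means as black bars and a dotted line at 6. Ghrl, Chga and Chgb lie above 11 on each isthmus array, while Ptprc, Col1a1 and Pecam1 are dim on most arrays of both groups.

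Hormone and granule genes of endocrine cells were among the 20 largest rises. Ghrl, the appetite hormone ghrelin, read 13.17, 13.38 and 13.41 in isthmus and 7.14, 7.93 and 5.71 in parietal samples, at least 81.2-fold higher (SE 0.49 on the log2 scale, limma adjusted p = 3.53e-05). Chga and Chgb, chromogranins of secretory granules, were at least 62.2-fold and at least 53.2-fold higher. Chga read 11.32, 12.71 and 12.14 against 6.63, 4.54 and 5.01. Sst, somatostatin, read 10.83, 10.71 and 11.10 against 7.34, 7.71 and 6.62, a 12.6-fold difference. Of 18 endocrine genes on the array 11 were tested, with 9 called higher and none lower, and a median of 4.84 that became 2.83 with a pseudocount of 64. Of the 18, 10 were above the array median on every isthmus array and 2 on every parietal array. The tested members were thus mostly those bright in isthmus, which tilts this count and median upward.

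Gast, the antral hormone gastrin, differed among the isthmus samples themselves, at 11.38, 3.66 and 14.07, and was not called. Gast was named after its values were seen. The summed linear signal of the 18 endocrine genes was 20895 to 45391 on the isthmus arrays and 922 to 1250 on the parietal arrays. That sum includes Gast, so its range on the isthmus arrays may in part reflect this gene. Scg2, a granin, was at 0 on all 3 parietal arrays. Endocrine transcripts thus moved with the same contrast as the cell division genes, and their part in the other differences was not tested.

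Surface pit genes were higher for most members. Of 16 tested, 11 were called higher, 1 lower and 4 neither, with a median of 1.31. Muc5ac, the surface mucin, read 13.32, 13.62 and 12.88 against 10.62, 10.51 and 9.48, an 8.40-fold difference (SE 0.31 on the log2 scale, limma adjusted p = 0.000103). Capn8, a calpain of pit cells, read 11.98, 12.07 and 12.37 against 8.56, 7.15 and 5.86, a 30.9-fold difference. Gkn2, gastrokine 2, was higher by 1.5-fold, and its call was lost with arrays centred on their medians and without the intensity trend. The count of 11 became 6 without that trend. The pit genes summed to a linear signal of 117424 to 138906 on the isthmus arrays and 86082 to 95435 on the parietal arrays, so pit transcripts were high in both groups.

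Neck cell genes gave 6 of 9 tested members higher and 2 lower, with a median of 1.85 that became 1.17 without parietal replicate 3. Tff2, a trefoil peptide of neck cells, read 13.32, 13.43 and 13.53 against 12.00, 12.52 and 11.41, a 2.73-fold difference. Agr2, which folds mucins, was 4.65-fold higher, and Aqp5, a water channel, at least 11.2-fold higher. Mia, a small secreted protein, was at least 7.0-fold lower. Neck genes summed to 25945 to 30064 on the isthmus arrays and 8809 to 16151 on the parietal arrays.

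Chief cell genes were less uniform, with 6 of 11 tested members higher, 1 lower and 4 neither, and a median of 0.74. Cblif, gastric intrinsic factor, read 11.94, 12.04 and 10.85 against 10.32, 8.43 and 8.90, a 5.25-fold difference. Pgc, the precursor of pepsin C, read 13.73, 14.09 and 13.90 against 13.45, 13.13 and 12.92, a 1.67-fold difference that lost its call without the intensity trend. Rab3d, a regulator of granule release, was 5.33-fold higher. Fgl1, a liver-type secreted protein, was the member called lower, by at least 11.7-fold. The count of 6 was 3 without isthmus replicate 2 or without the intensity trend, and the median was 0.46 without isthmus replicate 2, 1.18 without parietal replicate 1, 1.57 without isthmus replicate 3 and 0.42 with arrays centred on their medians. Chief genes summed to 34297 to 50914 on the isthmus arrays and 20416 to 31147 on the parietal arrays. The part that pit, neck and chief transcripts had in the other differences was not tested.

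Most markers of blood, stroma and vessels were dim in both groups, with an exception among hemoglobin genes. Hba-a2, an alpha globin, read 11.63, 11.68 and 11.68 in isthmus and 11.49, 11.32 and 11.29 in parietal samples and was not called, while Hba-a1 and Hbb-b2, named after their values were seen, read at most 2.78 and 5.84. The 5 red blood cell genes summed to 3241 to 3458 on the isthmus arrays and 2595 to 2906 on the parietal arrays. Of 17 leukocyte genes only 2 were tested, and the pan-leukocyte gene Ptprc read at most 3.36 on an isthmus array and 3.83 on a parietal array, with a 0 on parietal replicate 2. The leukocyte list summed to 511 to 707 on the isthmus arrays and 2204 to 3265 on the parietal arrays, and it includes Kit. Of 13 fibroblast and muscle genes 2 were tested and neither called, and Lum and Pdgfra were at 0 on an array each. Of 10 endothelial genes 3 were tested, with Plvap, a protein of capillary openings, called lower. Plvap read 0.01, 2.94 and 3.81 against 10.46, 9.34 and 10.13, at least 14.2-fold lower, while Pecam1 and Cdh5, which define endothelium, read no higher than 5.14 on any array. Of 12 intestinal epithelial genes on the array 7 were tested, with 2 called higher and 3 lower and a median of -1.44. That median was -0.81 without parietal replicate 1, -2.27 without isthmus replicate 2 and -0.86 with a pseudocount of 64. They summed to 9109 to 12611 on the isthmus arrays and 31535 to 35855 on the parietal arrays, and Apoa1, an apolipoprotein, was 4.14-fold lower. Fabp1 and Apoa4 were the other members called lower. The members called higher were Vil1 and Fabp2, with log2 differences of 2.88 and 5.47, and Fabp2 lost its call under 3 of 16 alternatives. The part of these lists in the other differences was not tested. Tuft cell genes were mostly untested, with 3 of 11, of which Avil and Alox5ap were called higher. Of the 11, 2 were above the array median on every isthmus array and 1 on every parietal array, so this count is tilted upward too.

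Genes of gastric metaplasia were called higher in 7 of 11 tested cases and lower in none, with a median of 2.92. Wfdc2 read 11.67, 9.92 and 10.84 against 5.66, 6.20 and 5.50, at least 28.6-fold higher. Dmbt1, a mucosal defence glycoprotein, was at least 22.2-fold higher, and Clu, clusterin, 2.28-fold higher, at 13.78, 13.80 and 14.03 against 13.05, 12.54 and 12.46. Gpx2 and Mal2 read -0.18 and -0.33 in difference and were not called. The count of 7 was 4 without isthmus replicate 1 or 2, and the median was 1.23, 1.22 and 1.11 without isthmus replicate 1, 2 and 3. Cd44 and Cftr, below the array median on every parietal array, were not tested in those fits. Cd44, Sox9, Olfm4, Aqp5, Cftr and Nupr1 stand in this list and in the progenitor, neck or chief lists.

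Interferon-stimulated genes were higher as well. Of 24 listed genes 21 were on the array and 19 were tested, with 16 called higher, 1 lower and 2 neither, and a median of 3.62 (2.59 with dim values set to the array median). Ifit1, which binds foreign RNA, read 11.01, 11.32 and 10.55 against 0.34, 3.50 and 1.34, at least 34.9-fold higher (SE 0.92 on the log2 scale, limma adjusted p = 0.000103). Oasl2 and Oas1a, of the oligoadenylate synthetase family, were at least 47.2-fold and at least 22.6-fold higher. Parp14, an ADP-ribosyltransferase, read 10.04, 11.72 and 11.06 against 4.23, 4.65 and 4.35, at least 34.4-fold higher. The transcription factor Irf1 was 12.3-fold and the immunoproteasome subunit Psmb9 12.8-fold higher.

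Ifi27, an interferon-inducible protein of mitochondria and other membranes, went the other way, at 9.31, 10.65 and 9.27 against 12.67, 13.09 and 13.21, a 9.49-fold difference. The count of 16 called higher was 10 without isthmus replicate 1 and 7 without isthmus replicate 2. Ifit1 and Parp14, below the array median on every parietal array, were not tested in those fits. Part of the fall is thus members leaving the test. It was 15 without parietal replicate 1, and the median was 2.13 with a pseudocount of 64.

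Immediate early genes, which respond within minutes to stimuli such as tissue dissociation, were called higher in 13 of 21 tested cases and lower in 1, with a median of 1.5. Fosb read 9.88, 10.49 and 11.20 against 6.63, 6.05 and 6.61, a 17.1-fold difference. Atf3, a stress-induced factor, read 11.64, 11.51 and 10.22 against 7.65, 7.44 and 8.05, a 10.6-fold difference, and Egr1 was 4.12-fold higher. The heat shock genes Hspa1a and Hspa1b, named after their values were seen, were not called. The count of 13 was 8 without isthmus replicate 1 or 3 and 7 without isthmus replicate 2. Klf4 is in this list and in that of lineage factors. The part of these genes in the other differences was not tested.

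Transcription factors of the gastric and endodermal lineage were called higher in 12 of 19 tested cases and lower in 1, with a median of 1.59. Foxq1, which is required for Muc5ac expression in the stomach, read 13.02, 12.91 and 13.09 against 9.79, 9.04 and 10.05, a 10.4-fold difference. Klf4, a factor of pit cell differentiation, read 13.00, 13.17 and 13.35 against 9.89, 9.08 and 8.39, a 16.6-fold difference. Hnf4a, a nuclear receptor of endodermal epithelia, was 6.13-fold higher, at 12.72, 12.43 and 12.49 against 10.10, 9.39 and 10.30. Ehf, an Ets factor of epithelia, was 17.4-fold higher, and Spdef, a factor of mucous cells, at least 11-fold higher. Foxa2 was the member called lower, at 9.71, 9.91 and 9.55 against 10.52, 11.09 and 10.34, and lost its call under 10 of 16 alternatives. With arrays centred on their medians 3 members were called lower.

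The 20 genes with the largest rises held several of no list. Aadac, an esterase of the endoplasmic reticulum, read 12.05, 11.43 and 11.70 against 5.67, 4.23 and 6.16, at least 55.3-fold higher. Aqp3, a water and glycerol channel, was at least 52.8-fold higher, at 12.16, 10.63 and 12.62 against 6.43, 5.95 and 5.35. Lypd8, a secreted protein that keeps bacteria off the epithelium, read 13.37, 13.70 and 13.65 against 8.12, 7.58 and 8.79, a 42.5-fold difference. Tm4sf5, Slc45a3 and Psapl1 were at least 44.6-fold, at least 40.3-fold and at least 33.8-fold higher. Each of these genes was near or below the array median on most parietal arrays, apart from Lypd8.

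Notch2, a receptor of the Notch pathway, read 11.75, 11.89 and 11.78 against 5.80, 8.54 and 5.73, at least 33.3-fold higher. Elovl5, which elongates polyunsaturated fatty acids, was at least 32.7-fold, and Apobec1, which edits the apolipoprotein B transcript, at least 32.4-fold higher. Peg3, an imprinted gene, read 10.57, 11.05 and 10.94 against 1.75, 1.21 and 3.62, at least 32.4-fold higher, with 3 of its 5 probe sets in that direction. Synpo, an actin-associated protein, was at least 32.0-fold higher in its chosen probe set, and 1 of its 2 probe sets gave that direction. Dock11, an activator of Cdc42, was at least 31.5-fold higher.

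**Figure D5:**
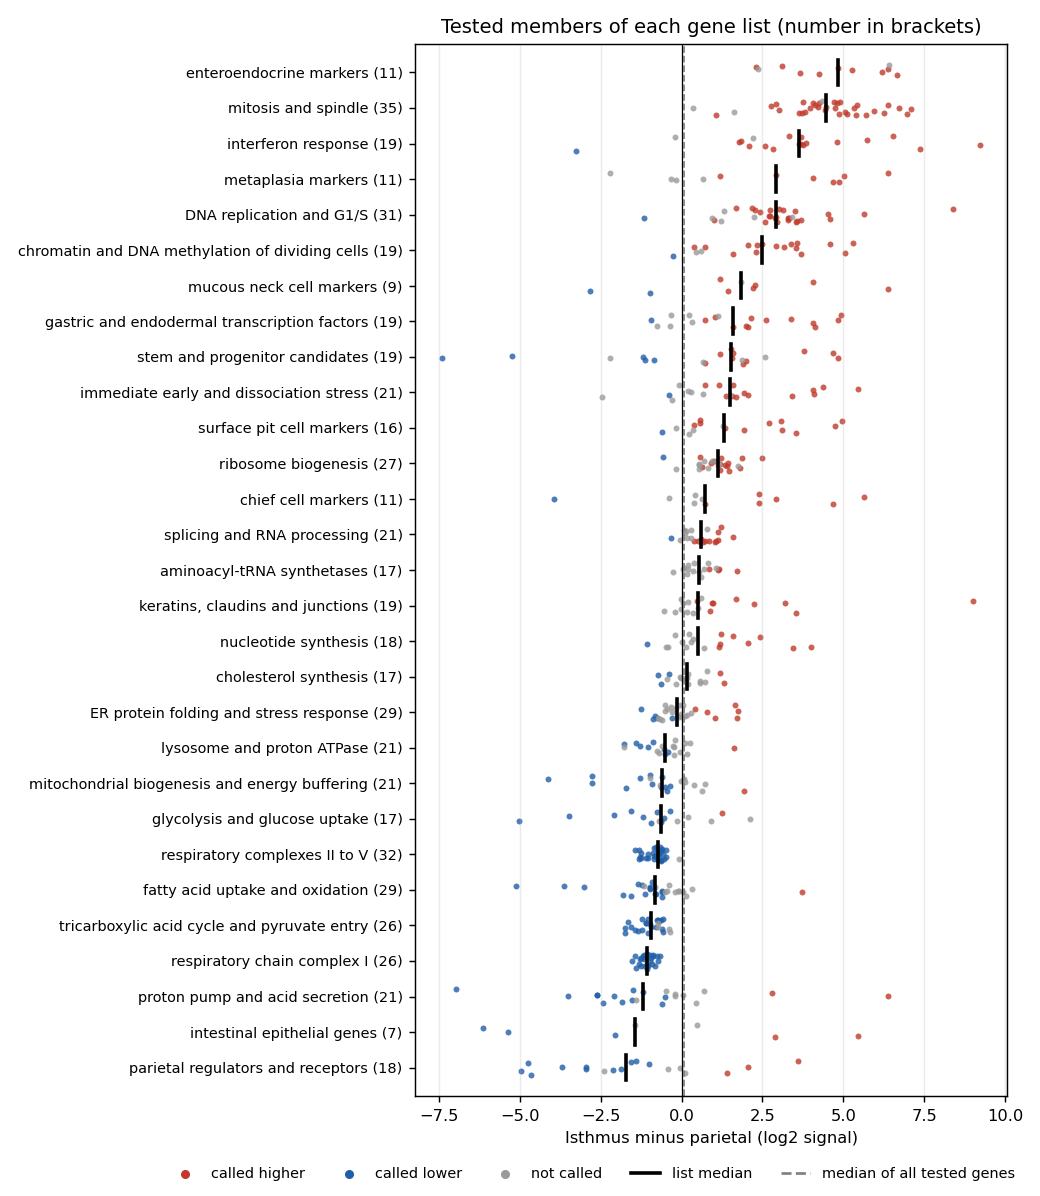
Log2 difference, isthmus minus parietal, of each tested member of the 29 gene lists with 5 or more tested members, coloured by call, with list medians as black bars and the median over all genes as a dashed line. Complex I and complexes II to V form narrow blue groups left of 0, while the endocrine, mitosis and interferon lists spread to the right.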

How the data were processed

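Gene expression in 6 samples, 3 isthmus and 3 parietal, was read on Affymetrix whole-genome mouse arrays. The authors deposited log2 signals, and MAS5 is named in the submitters' processing notes. No detection calls were used. Of 45037 probe sets, 34945 named 1 gene, 932 several and 9160 none, and 34741 matched RefSeq gene tables of GRCm38.p6. The brightest probe set by mean stood for each gene.

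Genes above the array's own median on at least 3 of 6 arrays were tested with limma 3.58.1 in R 4.3.3 (lmFit and eBayes with an intensity trend, 4 residual degrees of freedom), with Benjamini-Hochberg adjustment over 10359 genes and calls at 0.05. With 3 arrays in each group, their number limits the precision. Genes named were the 20 largest rises and 20 largest drops among called genes without overlap between groups, unnamed clones left out and dim values set to the array median, up to 6 called members of each list in each direction (the 2 brightest where none was called), the 4 brightest of each list of another cell type, and a fixed set of marker genes. Some further members are named as exceptions or examples, chosen after their values were seen: Cckbr, Cenpa, Cenpf, Hmmr, Cox7c, Ndufb4, Gast, Scg2, Hspa1a, Hspa1b, Gpx2, Mal2, Opa1, Mfn1, Ptprc, Lum, Pdgfra, Pecam1, Cdh5, Hba-a1 and Hbb-b2. The comparison and the gene lists were chosen with earlier results of these data known. Alternatives covered pseudocounts, filters, scaling, the trend, probe sets, all 9 arrays, a replicate block and leaving out each array. Promoters of 300 bases came from RefSeq.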

Additional observations from a re-analysis of the deposited data

How the results depend on the processing

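The counts of genes called higher and lower, 1709 and 1499, moved by less than 1.5 times under pseudocounts of 16 and 64, both other filters, quantile normalization, the mean of probe sets and all 9 arrays. Without the intensity trend they were 1368 and 1049, and with arrays centred on their medians 1161 and 2144. Leaving out 1 array gave 1091 to 1467 higher and 1037 to 1395 lower. Replicate numbers showed no pairing of the samples, as same-numbered arrays correlated at 0.006, 0 and -0.011 in their deviations. A shared animal or batch could go unseen in this check. The replicate block gave 1598 higher and 1421 lower. Of 232 named genes called, 167 kept their call under every alternative in which they were tested and 65 lost it under at least 1, most often without the intensity trend (42). Genes that failed the brightness filter in an alternative were not tested there, so no loss could be counted. Slc26a7, Ifit1 and Egf were tested in 13 of 16 alternatives, and Peg3 and Esrrb in 12.

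Differences that turned sign were mostly near 0. Under quantile normalization Car2 became 0.13, Esam -0.15, Hnrnpab 0.02 and Rbbp4 0.02. With median centring Esam became -0.15, Hba-a2 -0.02, Tff1 -0.08 and the cholesterol list's median -0.16. With the mean of probe sets Hnrnpab became 0.65, Pdia3 -1.40 and Sox9 -0.15. Leaving out 1 array gave Dclk1 differences from -0.78 to 1.35 (-0.04 without parietal replicate 1), Esam from -0.10 to 0.39 (-0.05 without isthmus replicate 2), Gpx2 from -0.38 to 0.05 and a cholesterol median of -0.03 without parietal replicate 1. The causes were not tested. Probe sets not above the array median limit what can be measured, so folds there are lower bounds.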

Other observations

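Genes of ribosome assembly were higher in 14 of 27 tested cases and lower in 1, with a median log2 difference of 1.13 against 0.07 over all genes. Gnl3, a nucleolar GTPase, read 11.46, 10.37 and 10.64 in isthmus and 8.74, 7.78 and 8.52 in parietal samples, a 5.57-fold difference. The count was 7 with arrays centred on their medians. Splicing genes were higher in 12 of 21 cases, with a median of 0.60 that became 0.28 with centring and a count that was 6 with centring, 5 without the intensity trend and 7 without isthmus replicate 1 or 3. Aminoacyl-tRNA synthetases were higher in 4 of 17 cases, not far from the 16.5% of all genes, or 2 with centring, which moved their median from 0.53 to 0.22. Protein folding genes of the endoplasmic reticulum split into 6 higher and 5 lower of 29, near the 16.5% and 14.5% of all genes, or 2 and 11 with centring. These counts were 3 and 3 without parietal replicate 1, 3 and 4 without isthmus replicate 2 or 3, 4 and 3 without parietal replicate 3, 5 and 3 without isthmus replicate 1, and 3 and 2 without the intensity trend. Their median of -0.13 was -0.03 without isthmus replicate 1, -0.23 without isthmus replicate 3, -0.04 under quantile normalization and -0.45 with centring.

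Lysosomal and proton ATPase genes were lower in 8 of 21 cases and higher in 1, with a median of -0.50 and a count of 5 without the intensity trend. The median was -0.25 under quantile normalization and -0.82 with centring. Psap, the saposin precursor, read 11.29, 11.28 and 10.93 against 12.43, 12.49 and 12.81, a 2.66-fold difference. Among keratins and junction proteins 9 of 19 were higher and none lower, against 14 higher under quantile normalization and 4 lower with centring, which moved the median from 0.52 to 0.20. Krt19 read 13.82, 13.81 and 14.03 against 11.74, 11.81 and 11.38, a 4.73-fold difference. Cldn2, a pore-forming claudin, read 10.69, 9.44 and 10.96 against 0.00, 4.09 and 0.00, at least 23.0-fold higher. Cholesterol synthesis gave 2 higher and 3 lower of 17, near the 16.5% and 14.5% of all genes. The counts were 0 and 3 without isthmus replicate 3, 3 and 0 without parietal replicate 3, 1 and 1 without parietal replicate 2 or isthmus replicate 1, 2 and 1 without isthmus replicate 2, and 1 and 0 without the intensity trend.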
